A study of Mus musculus with 6 samples.

Results

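Glucagon, the hormone of pancreatic alpha cells, was followed together with the genes that cut, trim and pack it. The set held 10 genes, chosen by symbol from the 55536 genes of the count table: the hormone gene Gcg, the prohormone convertase genes Pcsk1 and Pcsk2, the genes of their binding partners Pcsk1n and Scg5, the carboxypeptidase gene Cpe, and the granin genes Chga, Chgb, Scg2 and Scg3. All 10 were found once in the table and all 10 passed the filter on low counts. Gcg was lower in the knockout libraries by 32.0% and was the only one of the 10 past the threshold in DESeq2, a test of counts across all genes in which 0.657% of genes passed as lower. It did not pass in edgeR, another such test (adjusted p = 0.402), nor in DESeq2 without knockout replicate 1 or without knockout replicate 3. The values of 4 more members, Pcsk1, Pcsk2, Scg5 and Scg3, did not overlap between the groups and were lower in the knockout libraries, as were those of 8.54% of 15811 genes, but none of the 4 passed. Cpe, Chgb and Scg2, at 0.768%, -3.37% and 5.16%, differed least.

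Glucagon is made as part of a longer precursor, proglucagon, which is cut at pairs of basic residues inside secretory granules. In alpha cells prohormone convertase 2, the product of Pcsk2, releases glucagon, whereas prohormone convertase 1/3, the product of Pcsk1, releases GLP-1 from the same precursor and is best known in beta cells and gut L cells. Each convertase has a small partner protein: 7B2, from Scg5, is needed for the maturation of prohormone convertase 2, and proSAAS, from Pcsk1n, can inhibit prohormone convertase 1/3. Carboxypeptidase E removes the basic residues left after the cut, and granins are acidic proteins that aggregate with hormones in the forming granule. Within the islet, Gcg marks alpha cells, whereas the other genes are shared by several endocrine cell types.

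The study compared islets of mice lacking the transcription factor gene Klf4 in alpha cells with those of controls. Control mice had the genotype Klf4+/+;Gcg-iCre and knockout mice Klf4fl/fl;Gcg-iCre, on the background written C57B1/6J in the design text, with 3 islet RNA libraries in each group. Both groups therefore carry the Gcg-iCre driver, a Cre recombinase expressed under control of the glucagon gene. Neither the build of the driver at the Gcg gene nor its number of copies is given in the sources used here, and neither are age, sex or pooling of animals. Whole islets were sequenced, so Gcg stands for alpha cells, while the other 9 genes were read from alpha, beta and delta cells together. In such bulk samples fewer cells of a type and less RNA per cell cannot be told apart.

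Libraries held 101277200 to 110243918 counts, so for these abundant genes the spread between libraries, not counting error, limited the precision. Klf4, the targeted gene, had 3148, 2879 and 2015 normalized counts across control replicates 1 to 3, against 2340, 2540 and 2277 across knockout replicates 1 to 3. These ranges overlapped, and a gene count over whole islets does not show the deleted part, so the labels could not be checked by Klf4. Xist, the RNA of the inactive X chromosome, had 77938 to 108105 normalized counts in the 3 control libraries and 12 to 30 in the 3 knockout libraries. The Y-linked gene Ddx3y had 0 counts in every control library and 5599 to 6265 normalized counts in the knockout libraries. Sex-linked transcripts thus divided the libraries as genotype did, and for every difference below the sex of the mice and the genotype cannot be told apart. The labels list the libraries as separate samples but do not say that each came from its own animal, so p-values measure only the spread between these libraries.

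The promoters of 4 members are shown because they frame the comparison: Gcg, the one member past the threshold, the convertase genes Pcsk1 and Pcsk2, and the granin gene Scg2, which was not lower. Each line gives the 250 bases before the RefSeq start site on GRCm38, read 5′ to 3′ along the gene's own strand. Capitals mark 4 short motifs on either strand: CACCC and CCNCNCCC, which resemble sites of Kruppel-like factors, and TGACGTCA and its core TGACG, the cyclic AMP response element.
Gcg promoter, chr2:62483654-62483903, minus strand: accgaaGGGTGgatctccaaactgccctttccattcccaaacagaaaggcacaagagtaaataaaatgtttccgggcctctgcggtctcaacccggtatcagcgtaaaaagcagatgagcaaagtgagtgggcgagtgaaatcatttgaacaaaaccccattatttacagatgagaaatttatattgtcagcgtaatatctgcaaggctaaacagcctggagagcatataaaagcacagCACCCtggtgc
Pcsk1 promoter, chr13:75089607-75089856, plus strand: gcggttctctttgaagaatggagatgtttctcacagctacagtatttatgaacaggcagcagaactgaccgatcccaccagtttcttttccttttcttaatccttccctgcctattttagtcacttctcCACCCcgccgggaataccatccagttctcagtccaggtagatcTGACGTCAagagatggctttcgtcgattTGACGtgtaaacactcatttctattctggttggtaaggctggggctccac
Pcsk2 promoter, chr2:143545883-143546132, plus strand: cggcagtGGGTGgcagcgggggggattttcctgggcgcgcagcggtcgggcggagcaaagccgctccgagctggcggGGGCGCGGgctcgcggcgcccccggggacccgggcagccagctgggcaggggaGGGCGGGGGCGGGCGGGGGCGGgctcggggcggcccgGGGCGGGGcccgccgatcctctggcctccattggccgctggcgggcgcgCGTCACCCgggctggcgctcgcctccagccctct
Scg2 promoter, chr1:79440027-79440276, minus strand: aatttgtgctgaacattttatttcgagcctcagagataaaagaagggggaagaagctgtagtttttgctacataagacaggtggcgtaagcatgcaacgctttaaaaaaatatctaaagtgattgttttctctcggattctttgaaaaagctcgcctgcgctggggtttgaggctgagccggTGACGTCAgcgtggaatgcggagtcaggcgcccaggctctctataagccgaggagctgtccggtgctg

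RefSeq promoters were found for 9 of the 10 members, all except Cpe. CACCC was present in 6 of the 9 and in 52.0% of 32851 mouse promoters of the same length, and CCNCNCCC was present in 6 of the 9 and in 45.9% of all promoters. Both motifs are therefore common, and they can overlap each other. Within its 250 bases the Gcg promoter held CACCC at 2 places and no match to CCNCNCCC, TGACGTCA or TGACG. Bases further from the start site were not searched, so sites there would be missed. The Pcsk2 promoter, with a GC content of 82.4%, held 6 overlapping or separate matches to CCNCNCCC, whereas the Scg2 promoter held neither Kruppel-like motif. Chgb, Chga and Pcsk1n, whose groups also overlapped, held 1, 1 and 0 matches to CACCC. The same 3 promoters held 1, 3 and 2 matches to CCNCNCCC. TGACGTCA was present in 3 of the 9, those of Pcsk1, Chgb and Scg2, and in 1.55% of all promoters, and it began 78, 72 and 68 bases before the start site in these 3 genes. TGACG, which lies inside TGACGTCA, was present in 7 of the 9 and in 17.8% of all promoters. These matches describe letters only, and binding was not measured.

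The 10 genes differed widely in abundance. Per kilobase of merged exons, Gcg had the highest level in controls, at 3059972 normalized counts per kilobase, followed by Chga at 582796, Scg2 at 258762 and Cpe at 136745. Scg3, Chgb, Pcsk2 and Pcsk1n followed at 73424, 70679, 66096 and 62843, and the ranges of neighbours in this stretch overlapped. Scg5 at 46456 and Pcsk1 at 13691 normalized counts per kilobase closed the order, each apart from its neighbours. The order was the same in knockouts except that Chgb, at 68297, stood above Scg3, at 62669, with overlapping ranges. Together the 10 genes took 7.44% to 8.95% of all counts in control libraries and 6.16% to 6.91% in knockout libraries. The 9 members without Gcg took 3.49% to 3.85% in controls and 3.29% to 3.59% in knockouts, which overlap.

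**Figure D1:**
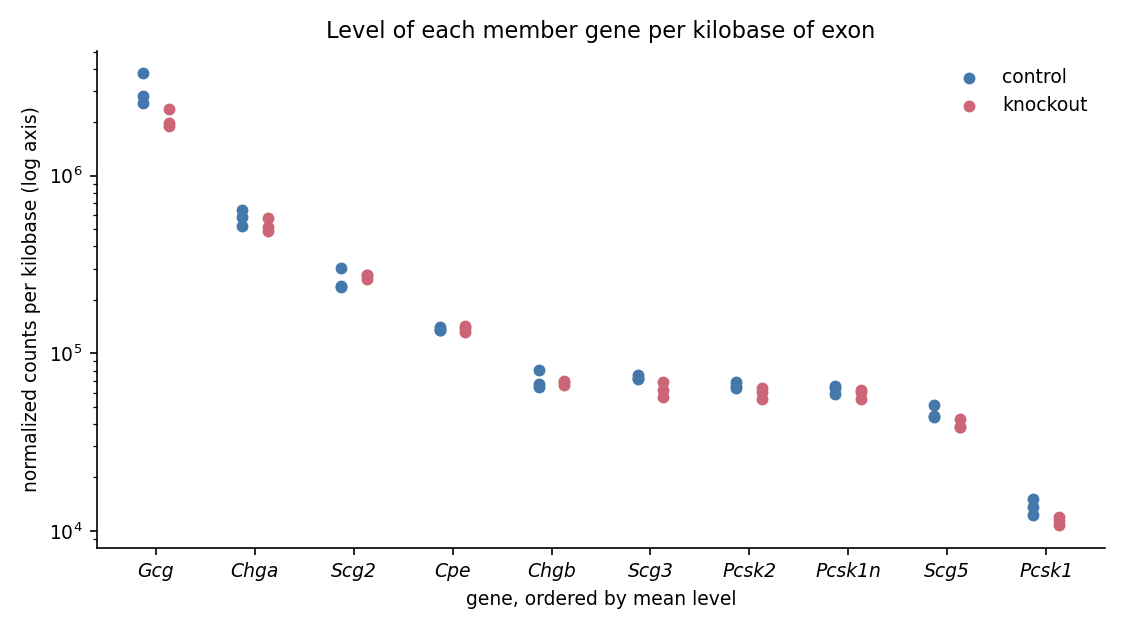
Normalized counts per kilobase of merged exons (log axis) for the 10 genes, ordered by mean level, with 1 point per library and 3 libraries per genotype. Gcg lies above all others in both genotypes, and the points of Chgb, Scg3, Pcsk2 and Pcsk1n lie close together.

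Gcg (ENSMUSG00000000394, chromosome 2, 62474530 to 62483650, minus strand, GRCm38), the glucagon gene, had 4221947, 5636518 and 3856329 normalized counts across control replicates 1 to 3. Knockout replicates 1 to 3 had 2855551, 3528733 and 2943188. Every knockout library lay below every control, and control replicate 2 stood above the other controls. The log2 fold change was -0.56 ± 0.13 (SE), a change of -32.0% with a 95% interval from -43.2% to -18.6%, and it passed in DESeq2 (adjusted p = 0.00332). In that test 0.657% of 17797 genes passed as lower and 1.53% as higher. In the edgeR quasi-likelihood test the log2 fold change was -0.55, with an unadjusted p of 0.0176 and an adjusted p of 0.402, so Gcg did not pass there, where 0.0198% of 25210 genes passed as lower. The call also ended in DESeq2 without knockout replicate 1 (-0.50, adjusted p = 0.144) or without knockout replicate 3 (-0.52, adjusted p = 0.0826), and without control replicate 2 the log2 fold change was -0.38 (adjusted p = 0.0441).

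**Figure D2:**
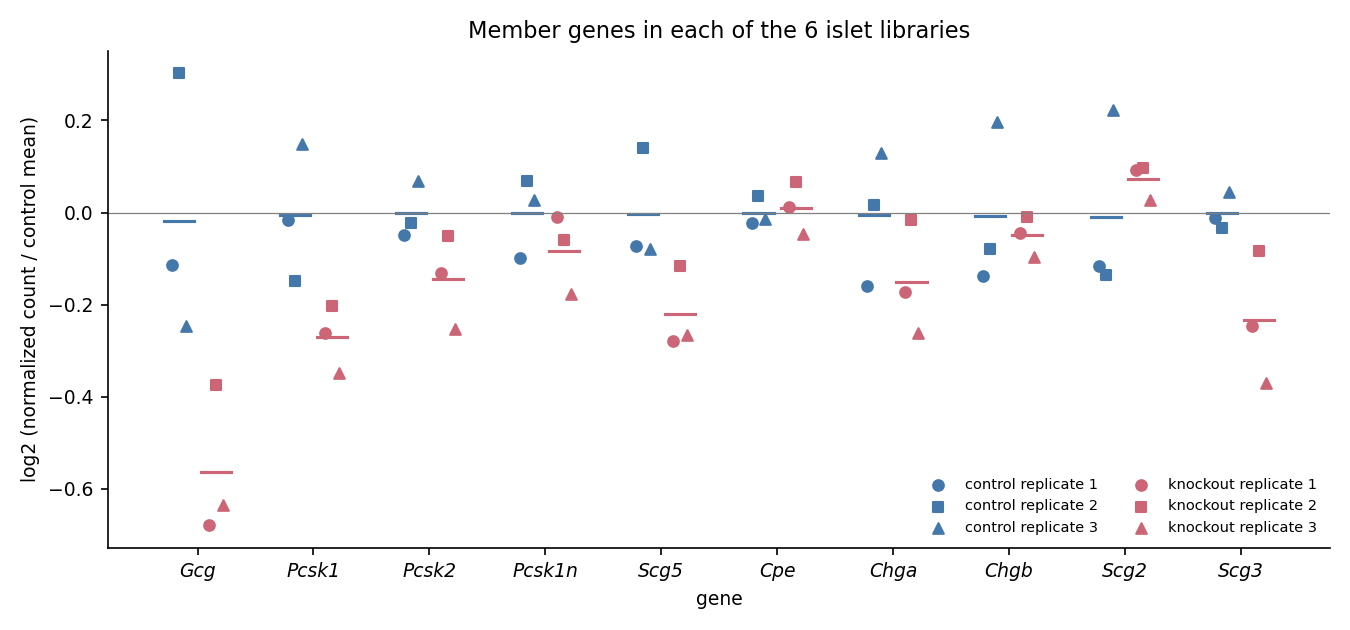
Normalized counts of the 10 genes in each library as log2 of the value over the control mean; symbols mark replicates, horizontal bars are group means of the log2 values. For Gcg, Pcsk1, Pcsk2, Scg5 and Scg3 all 3 knockout points lie below all 3 control points, and for the other 5 genes the groups overlap.

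Gcg was also set against other transcripts of the same library, which needs no scaling between libraries. Per count of Ins1 and Ins2, the insulin genes of beta cells, Gcg stood at 0.248, 0.295 and 0.195 in control replicates 1 to 3 against 0.149, 0.183 and 0.154 across knockout replicates 1 to 3. The log2 ratio was -2.04 ± 0.30 for control and -2.63 ± 0.16 for knockout libraries (SD, n = 3 each). They differed by -0.59 (exact two-sided permutation test, p = 0.1, the smallest that 3 against 3 allows). The groups did not overlap in this ratio.

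Against 12 other alpha-cell genes, Gcg was lower as well. The log2 level of Gcg minus the mean log2 level of those 12 genes was 9.27 ± 0.14 for control and 8.98 ± 0.11 for knockout libraries (SD, n = 3 each). The groups did not overlap and differed by -0.29 (exact two-sided permutation test, p = 0.1). The 12 genes themselves had a median log2 fold change of -0.24, beside -0.0066 over the 15811 genes with a mean of at least 50 normalized counts. Of the 12, 4 passed in DESeq2 as lower and none as higher, beside 0.657% and 1.53% of all genes tested. None of the 12 passed in edgeR, although 7 had an unadjusted p under 0.05 in DESeq2 and 6 in edgeR, beside 9.03% and 9.48% of all genes. Among them Ttr, the gene of the carrier protein transthyretin, had a log2 fold change of -0.57 and Slc38a5, an amino acid transporter gene of alpha cells, one of -0.55. Slc7a2, another amino acid transporter gene, did not pass, at 0.03. Summed over the list, alpha-cell genes held 260530 to 331232 normalized counts in controls and 210438 to 255995 in knockouts, and Ttr was the largest part of that sum in every library. The other 11 summed to 110989 to 130596 in controls and 110645 to 115593 in knockouts, which overlap. Slc7a2 was the largest part of that smaller sum, at 51283 to 59861 in controls and 57785 to 58286 in knockouts. With each of the 12 genes weighted equally, the mean log2 level was 12.74 to 13.02 in controls and 12.53 to 12.65 in knockouts. Those ranges do not overlap.

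Markers of other cells moved with genotype too, and their part in the Gcg difference was not tested. The 8 acinar genes, digestive enzyme genes of the exocrine pancreas, summed to 532847 to 1075065 normalized counts in controls and 1352521 to 1916106 in knockouts. None of the 8 passed in DESeq2 or edgeR, although all 8 had an unadjusted p under 0.05 in each, beside 9.03% and 9.48% of all genes, and 7 had higher, non-overlapping values in the knockouts, as did 9.42% of the 15811 genes. Of 7 mesenchymal genes, 5 passed as higher in DESeq2, beside 1.53% of all genes, and 3 in edgeR, where 0.115% of all genes passed in either direction. Their sum was 50247 to 65870 in controls and 95254 to 101864 in knockouts. The 12 beta-cell genes summed to 18884298 to 21951994 in controls and 21041890 to 21463446 in knockouts, ranges that overlap, but most of that sum was Ins1 and Ins2. The other 10 summed to 1863939 to 2174610 in controls and 1981510 to 2213967 in knockouts, which also overlap. Of the 12, 1 passed as lower in DESeq2, Nkx6-1 at a log2 fold change of -0.23, and none in edgeR, beside 0.657% and 0.0198% of all genes tested. At an unadjusted p under 0.05 there were 4 of the 12 in DESeq2 and 3 in edgeR, beside 9.03% and 9.48% of all genes. Knockout values were all below the controls for 3, Nkx6-1, Mafa at -0.31 and Slc2a2 at -0.24, and all above for 1, Npy1r at 0.24, beside 8.54% and 9.42% of the 15811 genes. Mafa encodes a beta-cell transcription factor and Slc2a2 the glucose transporter GLUT2, and neither passed. Of 6 duct, 6 immune and 9 immediate early genes 1 each passed as higher in DESeq2, Krt7, Cd68 and Fosb, again beside 1.53% of all genes. No gene passed among 6 delta and PP cell, 6 endothelial and 6 neural or glial genes in DESeq2 or edgeR, where 1, 0 and 0 of them had an unadjusted p under 0.05 in each. None of these lists held a gene at 0 in all libraries.

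Pcsk1 (ENSMUSG00000021587, chromosome 13, 75089826 to 75134861, plus strand), which encodes prohormone convertase 1/3, had 75894, 69224 and 85056 normalized counts across control replicates 1 to 3, against 64008, 66654 and 60272 across knockout replicates 1 to 3. The groups did not overlap. Its log2 fold change was -0.27 ± 0.09 (SE), a change of -17.0% with a 95% interval from -26.5% to -6.38%. It did not pass over all genes in DESeq2 (adjusted p = 0.0827) or edgeR (adjusted p = 0.391). It passed in DESeq2 when libraries were scaled to their counts without Ins1, Ins2 and Gcg (adjusted p = 0.0219) and without control replicate 2 (adjusted p = 0.00756).

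Pcsk2 (ENSMUSG00000027419, chromosome 2, 143546156 to 143816285, plus strand), which encodes the glucagon-releasing prohormone convertase 2, had 505378, 514600 and 548487 normalized counts across control replicates 1 to 3. Knockout replicates 1 to 3 had 476984, 504998 and 438692. The groups did not overlap, but knockout replicate 2 lay just under control replicate 1. Pcsk2, at a log2 fold change of -0.14 ± 0.08 (SE), did not pass in DESeq2 (adjusted p = 0.477), and its 95% interval ran from -18.3% to 0.461%. Without knockout replicate 3 the log2 fold change was -0.09. The antisense genes Pcsk2os1 and Pcsk2os2 overlap its exons by 260 and 99 bases. They held 13229 and 5692 counts over the 6 libraries, beside 2996903 for Pcsk2.

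The balance of the convertases was read within each library. Pcsk2 had 6.66, 7.43 and 6.45 counts for each Pcsk1 count in control replicates 1 to 3 and 7.45, 7.58 and 7.28 in knockout replicates 1 to 3. Control replicate 2 lay inside the knockout range. The difference in the log2 ratio was 0.12 (exact two-sided permutation test, p = 0.2). It was 0.18 without control replicate 2 and 0.08 without control replicate 3. Pcsk2 per count of its substrate gene Gcg was 0.120, 0.0913 and 0.142 in controls and 0.167, 0.143 and 0.149 in knockouts, with no overlap, although control replicate 3 came close to knockout replicate 2. That log2 difference was 0.40 (exact two-sided permutation test, p = 0.1), and without control replicate 2 it was 0.23 (exact p = 0.2). It had the opposite sign, -0.07, when Pcsk2 was set against Scg2, Chga and Chgb summed (exact permutation p = 0.4).

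**Figure D3:**
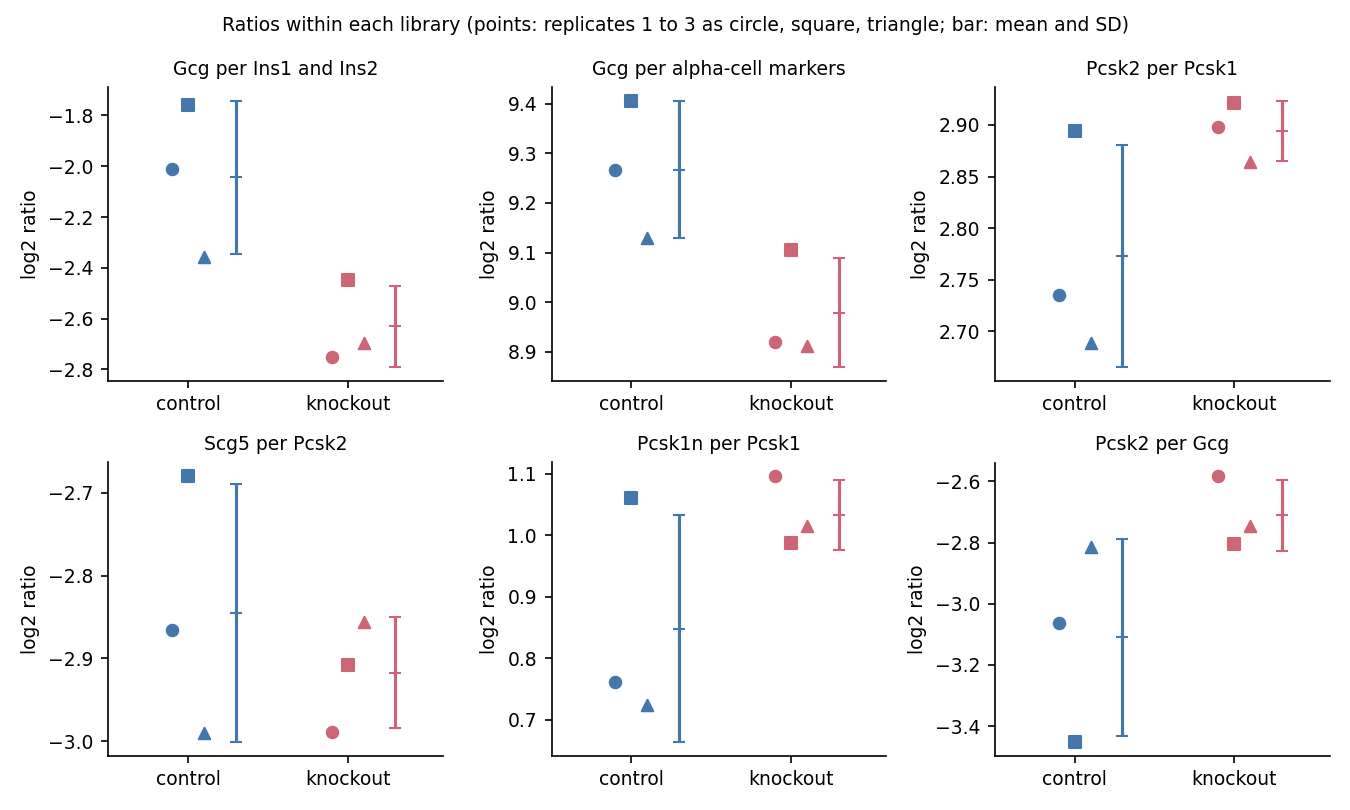
Log2 ratios within each library for 6 pairs of quantities, with replicates 1 to 3 as circle, square and triangle and the group mean and SD beside them (n = 3 each; axes do not start at 0). The groups separate for Gcg per insulin genes, Gcg per alpha-cell genes and Pcsk2 per Gcg, and they overlap for Pcsk2 per Pcsk1, Scg5 per Pcsk2 and Pcsk1n per Pcsk1.

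Scg5 (ENSMUSG00000023236, chromosome 2, 113776362 to 113829121, minus strand), which encodes the convertase 2 chaperone 7B2, had 69305, 80327 and 69036 normalized counts across control replicates 1 to 3, against 60074, 67290 and 60597 across knockout replicates 1 to 3. The groups did not overlap. As for Gcg, control replicate 2 was the highest control and knockout replicate 1 the lowest knockout. The log2 fold change of -0.22 ± 0.09 (SE) did not pass in DESeq2 (adjusted p = 0.202) or edgeR (adjusted p = 0.504), but it passed in DESeq2 without control replicate 3 (adjusted p = 0.0471). Without control replicate 2 it was -0.14. Scg5 per Pcsk2 count was 0.137, 0.156 and 0.126 in controls and 0.126, 0.133 and 0.138 in knockouts. These groups overlapped, and the log2 difference was -0.07 (exact two-sided permutation test, p = 0.7). Its sign turned without control replicate 2, at 0.011, and it was -0.14 without control replicate 3.

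Pcsk1n (ENSMUSG00000039278, chromosome X, 7919822 to 7924410, plus strand), which encodes the convertase 1/3 inhibitor proSAAS, had 128609, 144418 and 140420 normalized counts across control replicates 1 to 3, against 136898, 132182 and 121831 across knockout replicates 1 to 3. The groups overlapped. At a log2 fold change of -0.08 ± 0.08 (SE), Pcsk1n did not pass in DESeq2 (adjusted p = 0.806), and the 95% interval of that log2 value ran from -0.23 to 0.07. It moved to -0.04 without knockout replicate 3, to -0.05 without control replicate 2 and to -0.13 without control replicate 1. It is the only member on the X chromosome, which the sex of the libraries touches directly. Pcsk1n per Pcsk1 count was 1.69, 2.09 and 1.65 in controls and 2.14, 1.98 and 2.02 in knockouts, with a log2 difference of 0.18 (exact two-sided permutation test, p = 0.3) that was 0.29 without control replicate 2 and 0.12 without control replicate 3.

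Cpe (ENSMUSG00000037852, chromosome 8, 64592542 to 64693054, minus strand), which encodes carboxypeptidase E, had 351364, 365877 and 353061 normalized counts across control replicates 1 to 3, against 359892, 373289 and 345338 across knockout replicates 1 to 3. The knockout range enclosed the control range. Cpe was at 0.01 ± 0.06 (SE) on the log2 scale (adjusted p = 0.982 in DESeq2), with a 95% interval from -7.45% to 9.72%.

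Among Chga, Chgb, Scg2 and Scg3, only Scg3 had groups that did not overlap. Scg3 (ENSMUSG00000032181, chromosome 9, 75643189 to 75684056, minus strand), which encodes secretogranin III, a granule protein that binds chromogranin A, had 199490, 196315 and 207301 normalized counts across control replicates 1 to 3. Knockout replicates 1 to 3 had 169463, 189795 and 155505, all below the controls. The log2 fold change of -0.23 ± 0.08 (SE), or -14.6% with a 95% interval from -23.9% to -4.27%, did not pass in DESeq2 (adjusted p = 0.154) or edgeR (adjusted p = 0.514). Without knockout replicate 2, the knockout nearest to the controls, it was -0.31 and passed in DESeq2 (adjusted p = 0.00547).

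Chga (ENSMUSG00000021194, chromosome 12, 102554969 to 102565028, plus strand), which encodes chromogranin A, had 1438735, 1623875 and 1755950 normalized counts across control replicates 1 to 3, against 1424546, 1588080 and 1340545 across knockout replicates 1 to 3. The groups overlapped through control replicate 1 and knockout replicate 2. Chga was at -0.15 ± 0.10 (SE) on the log2 scale (adjusted p = 0.62 in DESeq2), with a 95% interval from -20.6% to 2.79%. Without control replicate 3 it was -0.08 and without control replicate 1 it was -0.22.

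Chgb (ENSMUSG00000027350, chromosome 2, 132781278 to 132795079, plus strand), which encodes chromogranin B, had 176009, 183211 and 221757 normalized counts across control replicates 1 to 3, against 187774, 192428 and 181200 across knockout replicates 1 to 3. All 3 knockout libraries lay inside the control range. Chgb was at -0.05 ± 0.09 (SE) on the log2 scale (adjusted p = 0.937 in DESeq2). It turned positive, to 0.06, without control replicate 3, which held the highest value, and was -0.11 without control replicate 1.

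Scg2 (ENSMUSG00000050711, chromosome 1, 79434669 to 79440120, minus strand), which encodes secretogranin II, had 600847, 591997 and 759514 normalized counts across control replicates 1 to 3, against 693660, 696119 and 663237 across knockout replicates 1 to 3. Control replicates 1 and 2 lay below every knockout library and control replicate 3 above every one. Scg2, at 0.07 ± 0.10 (SE) on the log2 scale, did not pass in DESeq2 (adjusted p = 0.897), with a 95% interval from -8.16% to 20.4%. Without control replicate 3 it was 0.20 and passed (adjusted p = 0.00233), so this library alone decided the call for Scg2. Without control replicate 1 it was 0.017 and without control replicate 2 it was 0.0086.

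**Figure D4:**
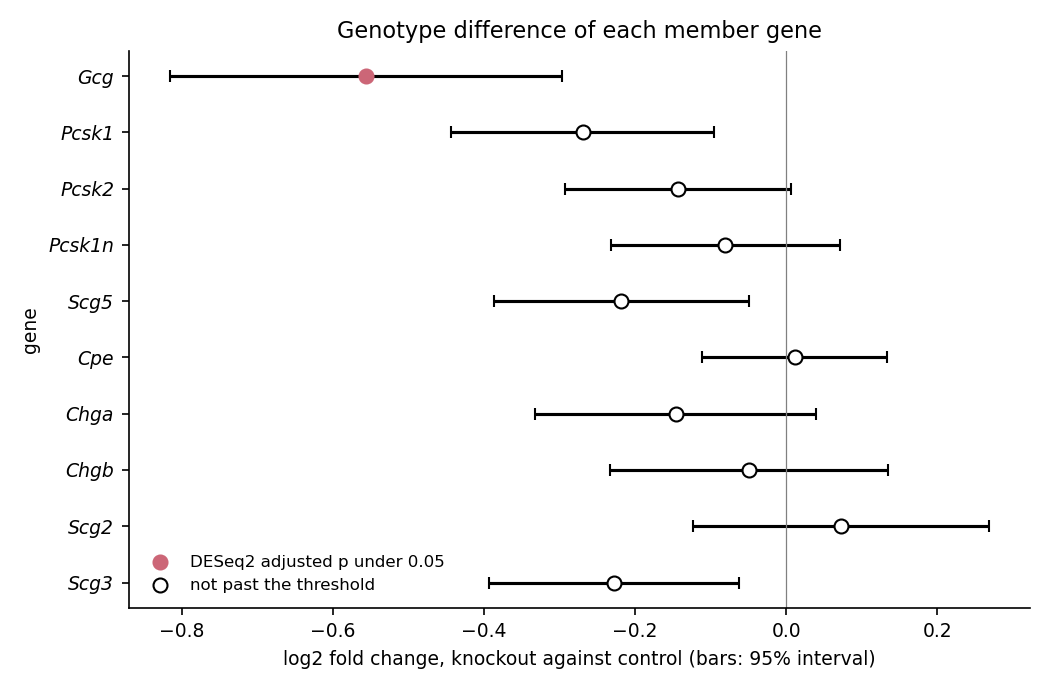
Log2 fold change of knockout against control for the 10 genes, with 95% intervals from DESeq2 (3 libraries per genotype). Gcg, at -0.56, is the only filled point, and the intervals of Pcsk1, Scg5 and Scg3 also lie below 0 although these genes did not pass after adjustment over all genes.

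Read as a list, 8 of the 10 genes had a negative log2 fold change, against 51.9% of the 15811 genes with a mean of at least 50 normalized counts, and the median over the 10 was -0.14 against -0.0066 over those genes. At an unadjusted p under 0.05, 4 of the 10 were lower in DESeq2 and 4 in edgeR, against 3.83% and 3.78% of all genes tested. Groups did not overlap and were lower for 5 of the 10 and higher for 0, against 8.54% and 9.42% of the 15811 genes. Among 1775 genes with a mean of at least 10000 normalized counts, nearer to the abundance of these members, that share was 10.5%. The same 5 genes, Gcg, Pcsk1, Pcsk2, Scg5 and Scg3, were the ones that did not overlap when libraries were scaled to all counts or to counts without Ins1, Ins2 and Gcg. The genes share cells and libraries, so they are not independent observations of the genotype.

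Within the knockout group most members followed 1 order. Knockout replicate 2 held the highest knockout value for 9 of the 10 genes and knockout replicate 3 the lowest for 8. The share over all genes was not counted. Summed alpha, beta, delta and PP, acinar, endothelial and immediate early genes had the same highest and lowest knockout. Summed duct, mesenchymal, immune and neural or glial genes did not. Controls were divided: replicate 3 was the highest for Pcsk1, Pcsk2 and the 4 granins, and replicate 2 for Gcg, Scg5, Pcsk1n and Cpe. The lowest control was replicate 1 for 5 genes, replicate 2 for 3 and replicate 3 for 2. Control replicate 3 also held the lowest Gcg of the controls, so the hormone gene and most granule genes did not follow each other across the control libraries.

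**Figure D5:**
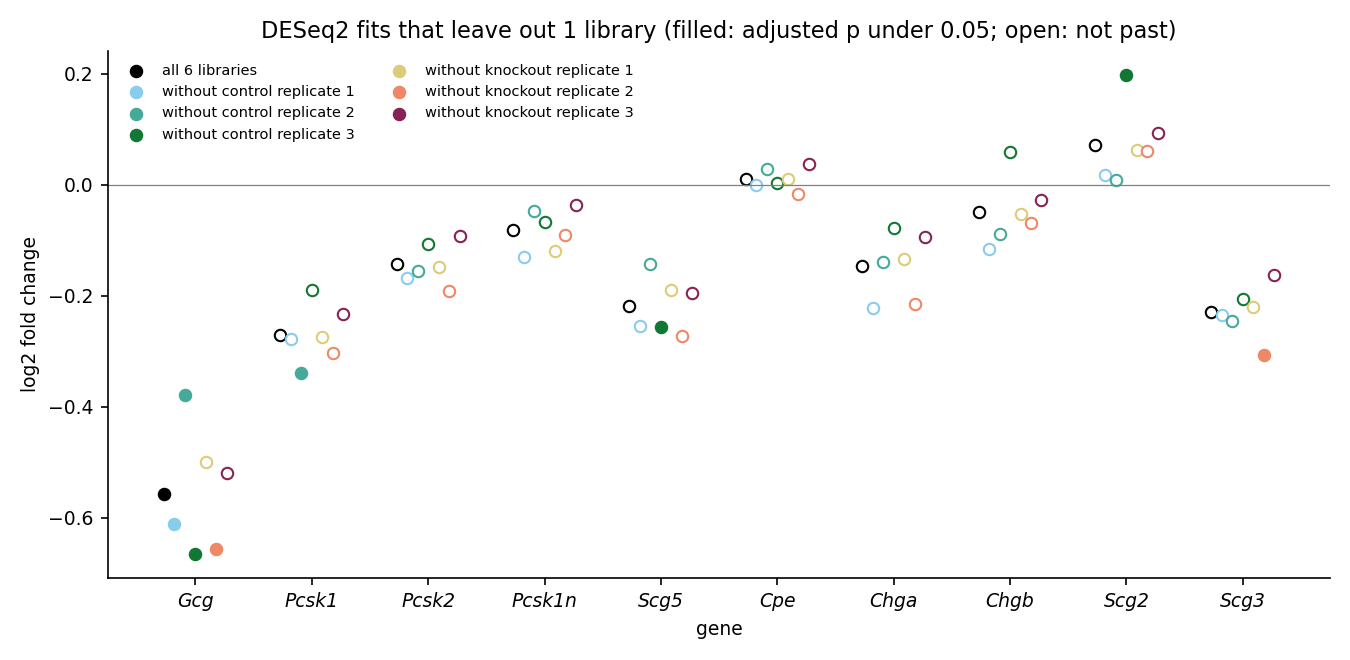
DESeq2 log2 fold changes of the 10 genes with all 6 libraries (black) and with each library left out in turn; filled points passed an adjusted p of 0.05. Gcg stays between -0.66 and -0.38 and is open without knockout replicate 1 or 3, and Scg2 is filled only without control replicate 3.

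The genes whose profile over the 6 libraries was most like that of Gcg were sought among 9614 genes with a mean of at least 1000 normalized counts. Likeness was the root mean square difference between profiles of log2 normalized counts, each centred on its own mean. Slc38a5 was nearest, at 0.054 on the log2 scale, followed by Gm11478 at 0.059, the granule cargo gene Vgf at 0.069, the alpha-cell transcription factor gene Irx2 at 0.076 and the secreted peroxidase gene Gpx3 at 0.089. The median over all genes searched was 0.35. Vgf, a member of the wider granin family, had 1833, 2506 and 1645 normalized counts across control replicates 1 to 3, against 1358, 1704 and 1387 across knockout replicates 1 to 3. Its log2 fold change of -0.43 ± 0.16 (SE) did not pass in DESeq2 (adjusted p = 0.154), and the groups overlapped through knockout replicate 2. Nearest to Pcsk2 were Pink1, Ncald and E130309D02Rik, at 0.016, 0.023 and 0.025, and nearest to Chgb were Arf2, Ppp2r5c and Sar1a, at 0.013, 0.015 and 0.021. The median over all genes searched was 0.13 for each. The centred profiles of Pcsk2 and Chgb had a root mean square of only 0.0998 and 0.108, beside 0.33 for Gcg. A flat profile would lie at these distances, so small values for Pcsk2 and Chgb say little.

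No further gene of the processing and granule machinery passed the threshold. Of 32 such genes in 5 lists, 0 passed in DESeq2, beside 2.19% of all genes tested, and 0 in edgeR. At an unadjusted p under 0.05 there were 8 in DESeq2 and 4 in edgeR, beside 9.03% and 9.48% of all genes tested, and 22 of the 32 had a negative log2 fold change, beside 51.9% of the 15811 genes with a mean of at least 50 normalized counts. Their median log2 fold change was -0.04, beside -0.0066 over those 15811 genes. Knockout values were all below the controls for 3 of the 32 and all above for 2, beside 8.54% and 9.42% of the 15811 genes, which is near the background. Among the 7 other proprotein convertase genes Mbtps1, which encodes the site-1 protease of the Golgi, was the most abundant per kilobase, with a log2 fold change of -0.02 ± 0.09 (SE). Pcsk5 was lower in every knockout library, at 251 to 281 normalized counts against 291 to 323, but at -0.22 ± 0.17 (SE) it did not pass. Among the 5 other carboxypeptidase genes Cpd, the trans-Golgi enzyme carboxypeptidase D, was at -0.01 ± 0.08 (SE). Cpz and Cpxm2 were the 2 genes with higher values in every knockout library, at 58 to 90 against 16 to 40 and at 438 to 506 against 337 to 414 normalized counts.

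Among 5 further peptide-processing genes, which include those that finish peptide ends, 2 had lower values in every knockout library. So did 8.54% of the 15811 genes and 10.5% of the 1775 abundant ones. Pam, which encodes the enzyme that amidates peptides at their carboxyl end, had 87791, 87492 and 92154 normalized counts across control replicates 1 to 3, against 79139, 86314 and 76664 across knockout replicates 1 to 3. The groups did not overlap, but its log2 fold change of -0.14 ± 0.07 (SE) did not pass in DESeq2 (adjusted p = 0.409). Qpct, the glutaminyl cyclase gene, was the other gene of its list with no overlap, at 557 to 629 in knockouts against 651 to 758 normalized counts in controls. Nucb2, which encodes the nesfatin precursor, had a log2 fold change of 0.14 ± 0.11 (SE). Of the 10 granule biogenesis genes Ptprn, which encodes the granule membrane protein IA-2, was the most abundant per kilobase, at 0.04 ± 0.08 (SE), and none of the 10 had groups that did not overlap.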

How the data were processed

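Polyadenylated RNA of isolated mouse islets was sequenced in 6 libraries, 3 per genotype. The deposited table holds raw read counts per gene, made by the authors; the submitters' processing notes name FastQC, STAR, featureCounts, DESeq2 and the build mm10, without roles, and the strand setting is not given in the sources used here. All 55536 gene IDs matched GENCODE M21 (GRCm38), which gave positions and merged exon lengths.

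Following the series' design text, DESeq2 1.42.0 (R 4.3.3; size factors, genotype as the only term, genes with at least 10 counts in total) was the main test, with Benjamini-Hochberg adjusted p under 0.05 over all genes. As an alternative, the quasi-likelihood test of edgeR 4.0.16 was run with TMM factors. Both were tested on simulated counts for 24111 genes with 200 changed. At an absolute log2 fold change of 0.5, DESeq2 recovered 56 of 100 and edgeR 35 of 100. At 1 they recovered 83 and 76 of 100. False calls over the whole run numbered 51 in DESeq2 and 12 in edgeR. In both tests false calls were a larger share of all calls than the threshold of 0.05. Other scalings, other filters on low counts, the replicate number as a block and each library left out in turn were also tried. Normalized counts are counts divided by size factors; log2 levels in the ratio of Gcg to alpha-cell genes add 1. Pairs of libraries of the same group differed by 40.0 to 120 times the chi-square expected from counting noise, so none was a repeat deposit.

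The members and gene lists were chosen with earlier results of these data known. All members, Klf4 and Xist were to be named, with every further pathway gene past the threshold or else the most abundant of each list, 5 genes most like Gcg and 3 each most like Pcsk2 and Chgb. Ddx3y, Pcsk5, Cpz, Cpxm2, Qpct, Ttr, Slc7a2, Nkx6-1, Mafa, Slc2a2, Npy1r, Krt7, Cd68 and Fosb were named after their values were seen. Promoters came from RefSeq (GRCm38.p6).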

Additional observations from a re-analysis of the deposited data

How the results depend on the processing

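Of 120 fold changes of the 10 members under the alternatives tried, 108 kept both their direction and their call, 3 lost the call, 6 gained it and 3 changed sign; the cause was not tested. Of 40 log2 ratios under alternatives 38 kept their sign; their exact p cannot fall below 0.1, so no threshold applies to them. The number of genes past the threshold was 389 in DESeq2 and 29 in edgeR (24 higher, 5 lower), where 2391 genes had an unadjusted p under 0.05; it ran from 153 without knockout replicate 1 to 952 without control replicate 3. In edgeR Gcg was at -0.55 and did not pass. Leaving out each library in turn gave -0.66 to -0.38 for Gcg, -0.34 to -0.19 for Pcsk1, -0.27 to -0.14 for Scg5, -0.31 to -0.16 for Scg3, 0.0086 to 0.20 for Scg2, -0.11 to 0.059 for Chgb, -0.016 to 0.039 for Cpe, -0.19 to -0.091 for Pcsk2, -0.13 to -0.035 for Pcsk1n, -0.22 to -0.077 for Chga, 0.23 to 0.55 for Pcsk2 per Gcg, 0.080 to 0.18 for Pcsk2 per Pcsk1, 0.12 to 0.29 for Pcsk1n per Pcsk1 and -0.14 to 0.011 for Scg5 per Pcsk2. Chgb, Cpe and the Scg5 per Pcsk2 ratio thus changed sign. With libraries scaled to counts without Ins1, Ins2 and Gcg, Pcsk1 was at -0.28 and passed. Pcsk2 per Gcg, at 0.40, was -0.070 with Scg2, Chga and Chgb as denominator. The count of members with lower, non-overlapping groups, a check added after the data were seen, was 5 and ran from 5 to 7 without 1 library, which can only keep or raise it, and where 11.5% to 16.9% of all genes met the same rule.

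With the replicate number as a block in DESeq2, Scg5 was at -0.22 and passed (adjusted p = 0.0445), Gcg was at -0.54 (adjusted p = 8.09e-10), the other 8 members did not pass, and 405 genes passed. Libraries with the same number did not deviate together: the correlation of their deviations over 15811 genes was -0.0482, -0.0587 and 0.0105, so the numbers were not treated as pairs.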
